A study of Mus musculus with 4 samples.

Results

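The 2 libraries of mouse embryonic stem (ES) cells were set against 2 libraries of differentiated mouse lines, to describe where myotube and pro-B chromatin differed from ES chromatin in the same way. All 4 libraries of the series entered, 1 for each group, each made by chromatin immunoprecipitation with an antibody to total histone H3. The ES pair was V6.5, a line of C57BL/6-129 background, either untreated or kept in SB431542 at 10 uM for 24 h before crosslinking. SB431542 inhibits the type I receptor kinases of the TGF-beta pathway. The ES cells had been grown on irradiated embryonic fibroblasts and then for passages on gelatin without them. The differentiated pair was C2C12, a myoblast line induced in horse serum to form myotubes for 48 h, and 38B9, a pro-B line in ordinary culture. Each group was thus a cultured line, and the labels gave a genetic background for the ES line alone. The myotube and pro-B libraries are of different lines and are not replicates of each other. The ES libraries are of 1 line, and they were the only measure of how far libraries of 1 line differ.

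Histone H3 is a core subunit of the nucleosome, around which DNA is wrapped along the whole genome. An antibody to total H3 recovers nucleosomes whatever their modifications, so that reads count nucleosomal DNA, and such libraries commonly serve as a baseline for modified histones. ES cells can form all tissues of the body, myotubes are fused muscle cells that have left the cell cycle, and pro-B cells are lymphoid precursors that rearrange their immunoglobulin heavy chain genes. No input DNA was analysed here, so the amount of DNA present and the H3 recovered from each copy cannot be told apart in any value below. SB431542-treated cells were sequenced in a run of their own, which leaves the treatment and the run confounded.

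Reads were counted in bins of 100 kb on autosomes 1 to 19, with each position and strand counted once. The libraries held 13132855 (untreated ES), 13469179 (SB431542 ES), 12432118 (myotube) and 13015879 (pro-B) such reads on the autosomes. A bin's level is its share of the autosomal reads divided by the library's median share on that chromosome, so that 1 is the chromosome's ordinary level. Of 24634 bins, 23365 had a mean of at least 100 reads and were compared, with medians of 520 to 581 reads in a bin. A bin was called different in both lines when all 4 log2 ratios, of the myotube and of the pro-B level to each ES level, were at least 0.5 or at most -0.5. With 1 library in each group no test was run. An exact permutation test of 2 libraries against 2 could not give a two-sided p below 0.333. Intervals on ratios are exact conditional binomial intervals of 95%, and they hold the error of counting alone, not that between libraries. Amplified reads with no molecular barcode are not separate molecules, so even the error of counting may be understated.

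Few bins differed from ES chromatin in the same way in both lines, although each line by itself differed from the ES pair more than the ES libraries differed from each other. The log2 ratio of SB431542 to untreated ES had an SD of 0.114 over bins. The SD was 0.246 and 0.235 for myotube over the untreated and SB431542 ES libraries, and 0.368 and 0.369 for pro-B over the same. From the quartiles, the spread was 1.35 times that of counting for the ES pair, 2.39 and 2.11 times for myotubes, and 3.88 and 3.99 times for pro-B cells. The 2 differentiated lines stood further from each other than either stood from ES cells, with an SD of 0.392 and 4.38 times the counting spread.

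The differentiated lines also differed in how uneven their own H3 was. The SD of the log2 level over bins was 0.35 in untreated ES, 0.34 in SB431542 ES, 0.39 in myotubes and 0.50 in pro-B cells. Only the pro-B library had many bins well above the ordinary level of their chromosome. A log2 level of at least 0.5 was reached by 73 bins in untreated ES, 152 in SB431542 ES, 252 in myotubes and 3515 in pro-B cells, which is 0.312%, 0.650%, 1.08% and 15.04% of bins. The 5th to 95th percentiles of the level were 0.637 to 1.25, 0.663 to 1.26, 0.630 to 1.24 and 0.615 to 1.72. The myotube range thus lay close to those of the ES pair, and a more uneven H3 was not common to both lines.

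By the rule of size, 23 bins (0.0984%) were higher in both lines than in both ES libraries and 36 bins (0.154%) were lower in both. Myotubes alone were higher in 206 bins (0.882%) and lower in 123 (0.526%), and pro-B cells alone were higher in 2265 (9.69%) and lower in 460 (1.97%). The SB431542 library was past 0.5 over untreated ES in 1 bin (0.00428%) and below -0.5 in 1 bin (0.00428%), though this is a rule on a single ratio. In common there were more lower than higher calls, while both lines had more higher than lower calls of their own. For myotubes this rested on 1 segment of chromosome 8, which held 159 of the 206 higher bins. At the looser rule of 0.3 myotubes had more lower than higher bins, at 839 and 559. The order of the calls in common turned with a minimum of 300 reads in a bin, at 24 higher and 16 lower bins. The lines differed from ES cells in opposite directions in 3 bins (0.0128%) with myotubes higher and in 20 bins (0.0856%) with pro-B cells higher. Set against each other, myotubes were past 0.5 over pro-B cells in 738 bins (3.16%) and below -0.5 in 3285 (14.1%).

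The count of calls changed with the limit on the ratio. At a looser rule of 0.3 on all 4 ratios, 153 bins (0.655%) were higher and 229 (0.98%) were lower in both, and the lines were opposed in 23 bins (0.0984%) with myotubes higher and 133 (0.569%) with pro-B cells higher. At 0.3 myotubes alone were higher in 559 bins (2.39%) and lower in 839 (3.59%), and pro-B cells in 4995 (21.4%) and 1988 (8.51%). The SB431542 library passed 0.3 over untreated ES in 156 bins (0.668%) and -0.3 in 77 (0.33%), again on a single ratio. At a rule of 1, which is a 2-fold difference, 13 bins (0.0556%) were lower in both lines and 0 (0%) were higher.

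**Figure D1:**
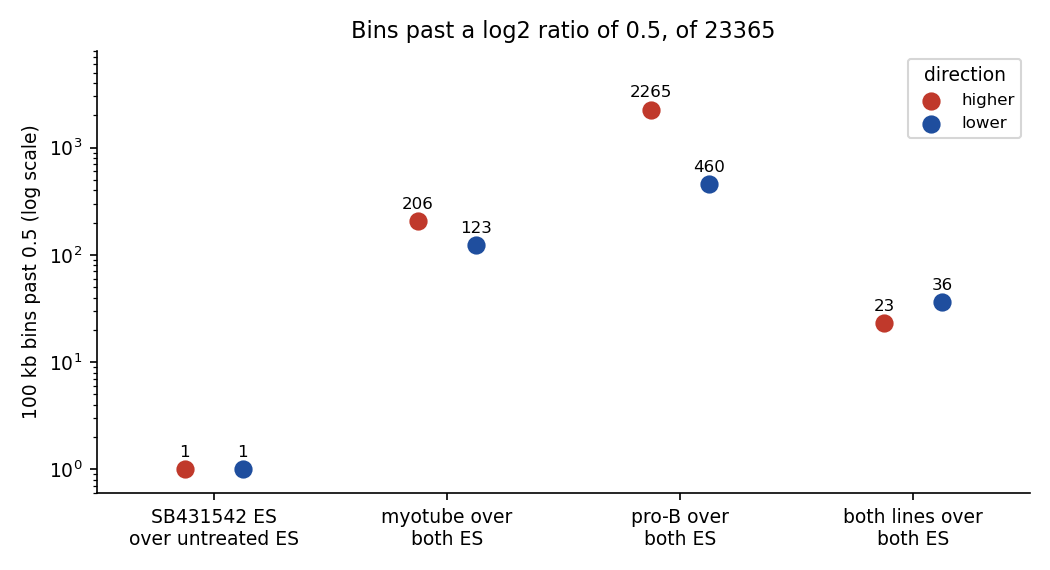
Number of 100 kb bins (vertical axis, log scale) past a log2 ratio of 0.5 in each direction, for SB431542 over untreated ES (1 ratio), each differentiated line over both ES libraries (2 ratios) and both lines over both ES libraries (4 ratios). The 23 higher and 36 lower bins common to both lines lie far below the 2265 and 460 of pro-B cells.

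Because both lines were divided by the same ES libraries, shared ES counting error can make them look alike. The ratios were therefore also formed with a different ES library for each line, so that no library entered both; the ES line is still common to them. Bins lower in myotubes were lower in pro-B cells more often than bins at large, though most of them were not. Of 207 bins with myotube over untreated ES at -0.5 or below, 20.8% had pro-B over SB431542 ES at -0.5 or below, against 2.99% of all bins, and their median log2 ratio was -0.10 against 0.02. With the ES libraries exchanged, 24.6% of 203 such bins were lower in pro-B cells, against 3.0% of all bins. The same 207 bins were higher in pro-B cells in 14.5%, against 11.7% of all bins. At a rule of 0.3 with the first pairing, 24.5% of 1489 bins lower in myotubes were lower in pro-B cells, against 12.4% of all bins. Those 1489 bins were higher in pro-B cells in 21.8%, against 24.4%, and their median was -0.03 against 0.02.

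Bins higher in 1 line carried little of that difference into the other. Of 238 bins with myotube over untreated ES at 0.5 or above, 14.3% were also past 0.5 for pro-B over SB431542 ES, against 11.7% of all bins, and with the ES libraries exchanged it was 13.9% of 230 bins against 12.4%. Chosen on pro-B cells, 1.24% of 2735 higher bins were higher in myotubes, against 1.02% of all bins, and 6.16% of 698 lower bins were lower in myotubes, against 0.886%. Over all 23365 bins the correlation of the myotube and pro-B ratios formed without a shared library was weak, with Pearson's r of 0.131 and 0.170 and Spearman's rho of 0.0212 and 0.0760 for the 2 pairings. Bins are neighbours on the same chromosomes and not independent replicates.

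**Figure D2:**
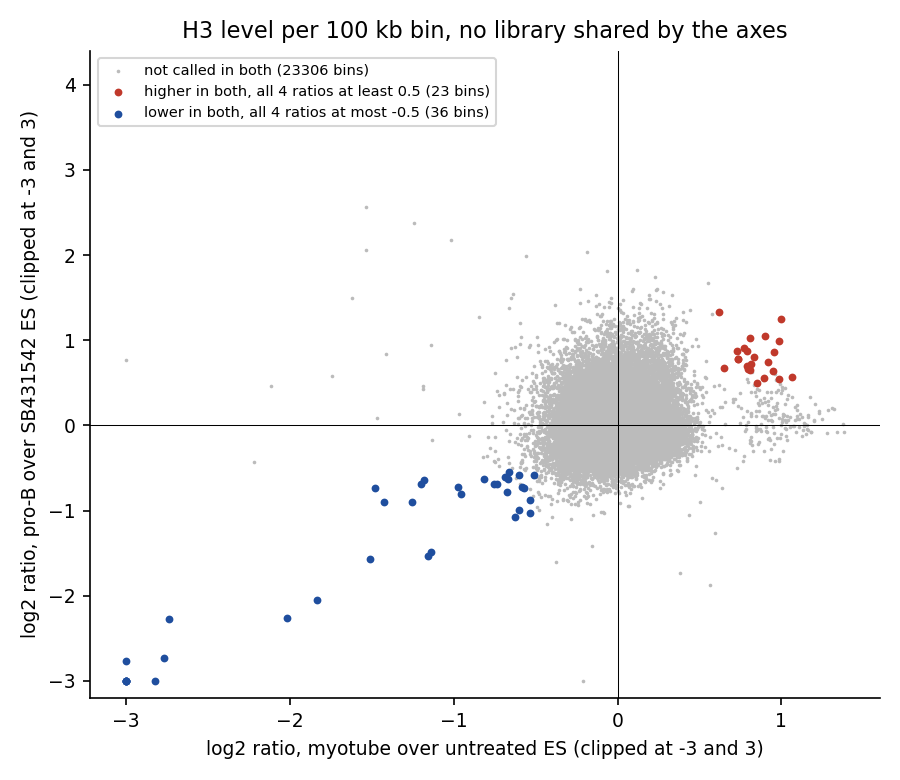
Log2 ratio of myotube over untreated ES (horizontal) and of pro-B over SB431542 ES (vertical) for each 100 kb bin, clipped at -3 and 3, with the 23 bins higher and 36 lower in both lines in colour. The cloud shows little slope; a tail of bins runs to the lower left, and a band with myotube log2 ratios near 1 spreads to both sides of the pro-B axis.

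The 36 bins lower in both lines lay on 14 autosomes, with 12 on chromosome 4, 6 on chromosome 6, 3 each on chromosomes 3 and 9, 2 each on chromosomes 2 and 16, and 1 each on 8 others. They were of 2 kinds by their level in ES cells. In 24 bins the ES pair lay below the chromosome's ordinary level, with median levels of 0.400 (untreated ES), 0.407 (SB431542 ES), 0.137 (myotube) and 0.120 (pro-B). In the other 12 the ES pair lay above it, with medians of 1.28, 1.27, 0.826 and 0.791. Bins of the first kind were thus mostly thin in 1-place reads even in ES cells. Over all 36 lower bins the median share of reads with 2 reported places was 19.9%, against 2.99% over all bins and 2.38% over the 23 higher bins.

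In 10 of the lower bins, 0.0428% of all, every ratio was at -2 or below, which is at least a 4-fold difference on the linear scale, and no bin reached 2 upwards. The bin on chromosome 4 from 121500001 to 121600000 held 382 reads in untreated ES, 418 in SB431542 ES, 1 in myotubes and 4 in pro-B cells. Its levels were 0.679 and 0.737 in the ES pair and 0.00194 and 0.00826 in the lines. Its ratio to the ES pair was 0.00273 in myotubes (6.92e-05 to 0.0153) and 0.0117 in pro-B cells (0.00317 to 0.0300). Both lines were close to empty where both ES libraries had reads, though below the ordinary level. On chromosome 4 from 111600001 to 111800000, 2 neighbouring bins together held 441 and 446 ES reads and 3 reads in each differentiated line.

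Further along chromosome 4, 4 neighbouring bins from 113000001 to 113400000 formed the longest lower region at the rule of 0.5. They held 938, 945, 179 and 156 reads in untreated ES, SB431542 ES, myotubes and pro-B cells, at mean levels of 0.417, 0.417, 0.0866 and 0.0806. The ratio to the ES pair was 0.208 in myotubes (0.177 to 0.243) and 0.193 in pro-B cells (0.163 to 0.228), while SB431542 over untreated ES was 1.00 (0.913 to 1.096). The lines were thus alike in size there, with intervals that overlap, and neither was empty. On chromosome 6, the bin from 130000001 held 209, 205, 13 and 11 reads and that from 131800001 held 317, 313, 28 and 31. Outside these chromosomes, the bin on chromosome 11 from 71000001 held 193, 191, 25 and 26 reads, the only near-empty bin that was not on chromosome 4 or 6.

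At finer scale, 43 stretches of more than 10 kb had no read in either differentiated line and at least 30 reads in each ES library. They held 3150 untreated and 3175 SB431542 ES reads over 1.59 Mb on 9 autosomes, and the median length was 17.8 kb (10.2 to 388.5 kb). No stretch was empty in both ES libraries with at least 30 reads in each differentiated line. The rule for stretches was set after the bins had been seen, and a sequence absent from the ES line itself but present in both others would have counted in that reverse direction. V6.5 is partly of the C57BL/6 strain of the mm8 reference, so the 2 directions were not on an even footing. The absence of reverse stretches is given with no reading. Chromosome 4 held 20 of the 43 stretches and 1.18 Mb of their length, and chromosome 6 held 9. A good part of this length had no 1-place reads in ES cells either. With pieces of over 5 kb without a read in either ES library taken out, a measure added after the data were seen, 955 kb (60.2%) was left of all stretches and 574 kb (48.7%) of those on chromosome 4.

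Joined over gaps of up to 1 Mb, the stretches formed 14 places, 7 of them with a single stretch. The place with the longest stretches was on chromosome 4 from 121236880 to 121992917, where 756 kb held 652 and 714 ES reads, 2 myotube reads and 5 pro-B reads. Most of it lacked 1-place reads in all 4 libraries, and the pieces with ES reads came to 147 kb of the 733 kb in its stretches. The single longest stretch inside it, 121604376 to 121992917, held 142 and 170 ES reads and none in the lines, and 46.5 kb of its 388.5 kb had ES reads. A count of 0 there allows up to 0.0210 times the ES level in myotubes and 0.0224 times in pro-B cells, by a limit of 3 counts. Reads with 2 places were nearly gone from the same stretch as well, with 832 and 867 lines in the ES pair against 22 and 24.

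**Figure D3:**
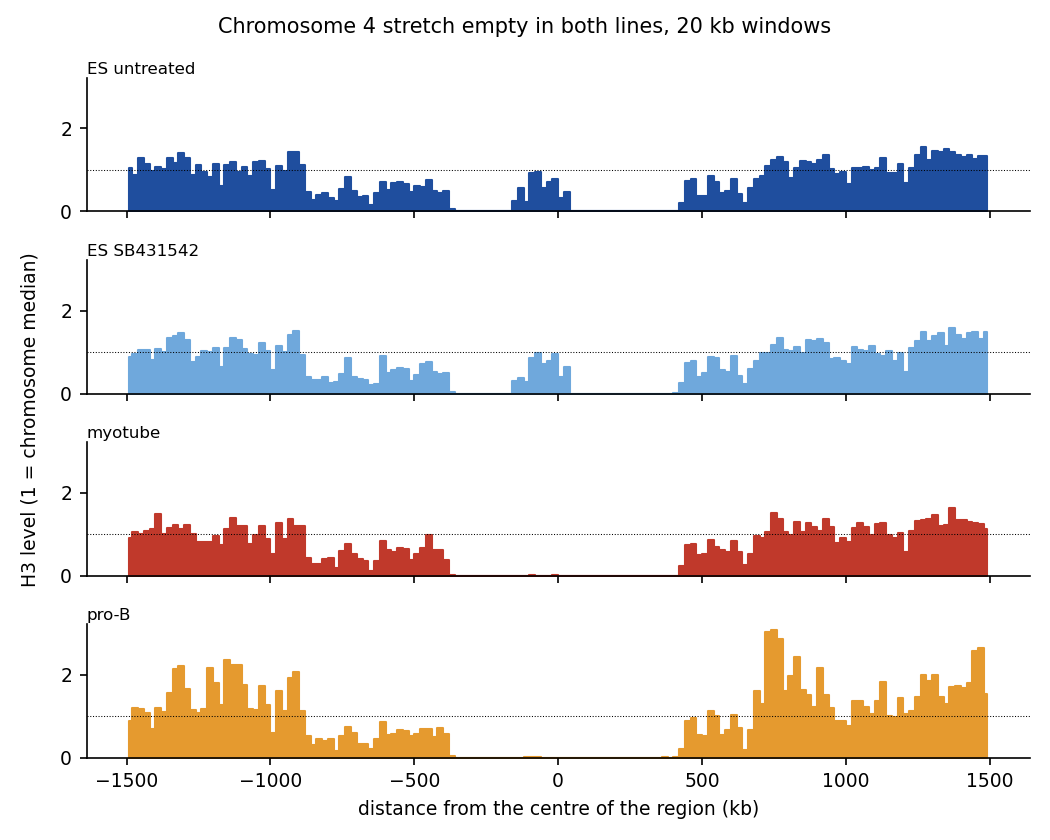
H3 level (1 is the chromosome median) in windows of 20 kb for the 4 libraries on chromosome 4. Distance in kb is from the centre of the whole place from 121236880 to 121992917, which holds the longest stretch. The ES pair has reads in a block about the centre where myotubes and pro-B cells are at or near 0. On both sides of that block all 4 libraries are at or near 0. The flanks beyond are alike in ES cells and myotubes, and pro-B cells are higher in parts of both flanks.

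The second place on chromosome 4, from 111571542 to 113184773, had reads in part of its length. Its 15 empty stretches covered 446 kb of 1613 kb, of which 427 kb had ES reads, and the whole span held 3201, 3309, 931 and 1052 reads in untreated ES, SB431542 ES, myotubes and pro-B cells. Many of the stretches were parted by 1 position with a read in a single line, and joined over such positions they made 9 blocks, the longest of 177 kb from 111571542 to 111748424. A place on chromosome 6 from 131793886 to 132629602 was far from empty, with 7 empty stretches that covered 104 kb of 836 kb. It held 1919, 1962, 1339 and 1158 reads in the same order of libraries. The remaining places were nearly or fully empty throughout. The 67.3 kb on chromosome 19 from 9247079 to 9314346 held 249 and 246 ES reads, 0 in myotubes and 2 in pro-B cells. The 18.1 kb on chromosome 8 from 66200502 held 119 and 118 ES reads and none in either line.

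An end of a stretch can be set by 1 stray read of either line, so no reading is drawn from the ends over the set. In all, 13 of its borders were of 1 position. Both ends of the 2 lines lay within 1 kb of each other in only 4 of the 43 stretches. Among these was chromosome 6 from 132596004 to 132629602, 33.6 kb with 154 and 165 ES reads. The nearest reads of the 2 lines differed by 240 bp at its start and by 102 bp at its end. There the ES pair was near ordinary levels, at 0.810 and 0.859, and 2-place lines were few, at 5, 3, 3 and 2. In the whole set, lines of reads with 2 places were 1991 and 2110 in the ES pair, 339 in myotubes and 297 in pro-B cells. The mm8 reference is of the C57BL/6 strain, which contributes to V6.5. Whether a stretch lacked DNA, differed in sequence from the reference or lacked H3 in the 2 lines cannot be told apart from these libraries. Of the 36 lower bins, 10 touched such a stretch.

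Reads with 2 reported places, counted by themselves, were furthest below ES cells on chromosome 4 again. Of 9973 bins with a mean of at least 20 such lines, 71 (0.712%) were higher and 147 (1.47%) lower in both lines at the rule of 0.5. At a rule of 1, 3 (0.0301%) were higher and 28 (0.281%) lower. These bins hold few lines, and SB431542 over untreated ES, a single ratio, was past 1 in 78 of them and below -1 in 89. It was past 0.5 in 933 of them and below -0.5 in 866. Of the 28 lower bins, the 5 furthest from ES cells lay on chromosome 4 between 121400001 and 122000000. That from 121400001 held 387, 397, 15 and 28 lines in untreated ES, SB431542 ES, myotubes and pro-B cells.

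The 12 lower bins with an ES level above that of the chromosome had reads in all 4 libraries and graded differences. The bin on chromosome 3 from 25700001 was far above its chromosome in ES cells, at levels of 2.82 and 2.86 (1550 and 1623 reads), and stood at 1.24 in myotubes (668 reads) and 1.84 in pro-B cells (940 reads). Its ratio to the ES pair was 0.438 (0.402 to 0.476) in myotubes and 0.648 (0.602 to 0.697) in pro-B cells. Both lines were lower there, but by different amounts, and the intervals do not overlap. On chromosome 9 from 123700001 the levels were 1.31 and 1.27 in the ES pair, 0.568 in myotubes and 0.793 in pro-B cells. On chromosome 16 from 35400001 the order of the lines was the other way, with levels of 1.55, 1.56, 1.00 and 0.739.

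These graded differences reached beyond single bins. In the 12 bins the median log2 ratio to the mean of the ES pair was -0.63 in myotubes and -0.70 in pro-B cells. At 100 kb from them it was -0.31 and -0.46, and at 500 kb it was -0.14 and -0.09. Bins picked for a low ratio have lower ratios than their neighbours by that choice alone, so the decline is a description of width only. For the 24 bins with a low ES level it went from -1.55 and -1.59 to -0.31 and -0.45 at 100 kb, and to -0.03 and -0.05 at 500 kb.

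At the looser rule of 0.3, 11 lower regions of at least 3 neighbouring bins were found, and 10 of them were graded and lay outside the near-empty part of chromosome 4. The longest was on chromosome 2 from 20100001 to 20700000, 6 bins with 4408, 4484, 3180 and 2851 reads in untreated ES, SB431542 ES, myotubes and pro-B cells. Mean levels there were 1.26, 1.29, 0.972 and 0.873, so that the region stood above its chromosome in ES cells and near or below the ordinary level in both lines. The ratio to the ES pair was 0.764 in myotubes (0.733 to 0.795) and 0.686 in pro-B cells (0.657 to 0.716). From the first to the last of its 6 bins the untreated ES level went from 1.04 to 1.47, that of myotubes from 0.786 to 1.17 and that of pro-B cells from 0.811 to 0.939. In each bin both lines lay below both ES libraries, as the rule requires.

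The region on chromosome 9 from 46600001 to 46900000 had the lowest pro-B ratio among the graded ones. Its mean levels were 1.48 and 1.61 in the ES pair, 1.02 in myotubes and 0.801 in pro-B cells, with ratios to the ES pair of 0.658 (0.622 to 0.696) and 0.519 (0.488 to 0.552). Here the SB431542 library was itself 1.09 times untreated ES (1.03 to 1.15). Pro-B cells were also further from the ES pair than myotubes on chromosome 16 from 8800001 to 9300000, with ratios of 0.552 and 0.729, and on chromosome 3 from 34800001 to 35100000, with 0.569 and 0.731. The lines were close to each other on chromosome 4 from 125000001 to 125300000, at 0.711 and 0.708, and on chromosome 8 from 128100001 to 128600000, at 0.687 and 0.662. Of the remaining lower regions, those on chromosomes 1, 2 (from 172200001), 3 (from 9500001) and 14 had ratios of 0.602 to 0.757 over both lines.

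Over all 229 bins lower at 0.3, 162 (70.7%) had an ES level above the chromosome median, against 50.1% of all bins. A choice of bins with low ratios to ES by itself favours high ES levels, so this share is given with no reading. They lay on all 19 autosomes, with 21 on chromosome 4, 20 on chromosome 3 and 19 on chromosome 6. When bins were chosen at 0.3 on untreated ES alone, 446 of 23365 were lower in both lines. The SB431542 library, which took no part in that choice, lay above both lines in all 446. Of 441 bins chosen as higher in the same way, it lay below both lines in 437. The log2 ratio of the ES libraries had an SD of only 0.114, so these outcomes were nearly fixed in advance and are given with no reading. In the 446 bins the median SB431542 level was 1.05, against 1.13 in the untreated library that had been used to choose.

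The 23 bins higher in both lines lay on chromosomes 8 and 17 alone. Their median levels were 1.03 and 1.01 in the ES pair, 1.87 in myotubes and 1.79 in pro-B cells, so the ES pair was at the ordinary level and both lines were well above it. Chromosome 8 held 19 of them and chromosome 17 held 4. The SB431542 library stayed within 0.22 (log2) of untreated ES in all 23.

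The chromosome 17 bins formed a block with the same limits in both lines. From 30200001 to 30600000, 4 neighbouring bins passed the rule of 0.3 and 3 of them the rule of 0.5. The 4 bins held 2652, 2627, 4005 and 4403 reads in untreated ES, SB431542 ES, myotubes and pro-B cells, at mean levels of 1.18, 1.18, 1.91 and 2.06. The ES libraries were alike, at a ratio of 0.993 (0.941 to 1.05), and both lines lay well above them, at 1.62 times the ES pair in myotubes (1.55 to 1.69) and 1.74 times in pro-B cells (1.67 to 1.81).

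The limits of the block were placed for each line by itself, on a grid of 5 kb, where a single step in the ratio to the ES pair had the highest likelihood. The myotube block ran from 30170001 to 30655000 and the pro-B block from 30170001 to 30650000. The starts were thus equal on the grid and the ends differed by 5 kb. Inside, myotubes were at 1.62 times the ES pair (1.56 to 1.68) and pro-B cells at 1.75 times (1.68 to 1.81). Outside, within 1 Mb, they were at 0.901 and 1.05 times. Over the 480 kb common to both, the libraries held 3159, 3095, 4745 and 5231 reads. Lines of reads with 2 places were higher in the same order of lines, at 141, 178, 209 and 262. Both lines were higher over the same limited length on a flat ES background.

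**Figure D4:**
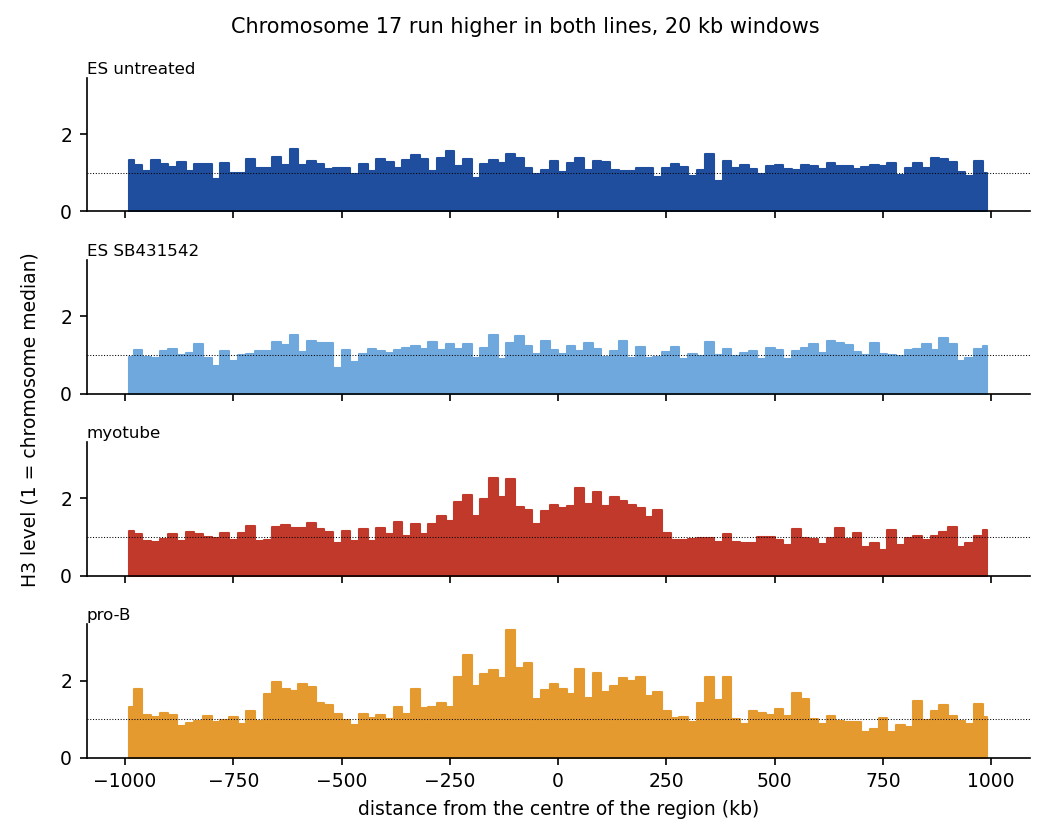
H3 level (1 is the chromosome median) in windows of 20 kb on chromosome 17 around the block higher in both lines, by distance from its centre in kb, for the 4 libraries. The ES pair is flat near 1.2 across the window, and both lines stand near 2 between about -250 and 250 kb; pro-B cells also have narrower peaks outside.

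The other higher bin of chromosome 17, from 39700001, was of another kind. It held 385, 396, 600 and 653 reads in untreated ES, SB431542 ES, myotubes and pro-B cells, at levels of 0.688, 0.709, 1.15 and 1.22. The ES pair was below the ordinary level there and both lines were just above it. The bin was rich in reads with 2 places, at 339, 327, 460 and 513 lines. The ratio to the ES pair was 1.64 in myotubes (1.47 to 1.83) and 1.75 in pro-B cells (1.57 to 1.94).

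On chromosome 8 the 19 higher bins lay between 81500001 and 98000000, a part of the chromosome that was higher in myotubes nearly throughout. Over its 165 bins the median log2 ratio of myotubes to the ES pair was 0.91 (0.42 to 1.31), and 159 bins passed 0.5 for myotubes alone. In pro-B cells the median was 0.11 (-0.61 to 1.29), and 19 of the 165 bins passed 0.5. Over all autosomes 2265 of 23365 bins (9.69%) passed it in pro-B cells, a share not far from that in the segment. Over the other 1073 bins of the chromosome the medians were -0.02 and 0.04. Each of the 19 calls was therefore a pro-B bin high in a long myotube segment, and the 2 lines did not share its limits. At 1 Mb from these bins the median log2 ratio was still 0.89 in myotubes but 0.07 in pro-B cells.

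The bin furthest from ES cells among all 23 was on chromosome 8 from 97200001, with 715, 732, 1187 and 1115 reads in untreated ES, SB431542 ES, myotubes and pro-B cells and levels of 1.08, 1.01, 2.17 and 2.41. It belonged to a region of 4 bins up to 97600000, at 1.91 times the ES pair in myotubes (1.83 to 1.99) and 1.86 times in pro-B cells (1.79 to 1.94). A region of 3 bins from 83700001 to 84000000 was at 1.76 times (1.68 to 1.84) and 1.72 times (1.64 to 1.81). It held 2113, 2434, 3169 and 2617 reads, and the ratios are of levels divided by each library's chromosome 8 median. The 5 chromosome 8 bins furthest from ES cells had a log2 ratio nearest to 0 of 0.796 to 0.998. With the median over all autosomes it was lower, at 0.374 to 0.767. With the level set against the bins within 5 Mb on either side in place of the whole chromosome, no chromosome 8 bin was called. Of the 6 bins then higher in both lines, 5 were on chromosome 17 (from 30200001, 30300001, 30400001, 30500001 and 39700001) and 1 on chromosome 12 (from 115500001), and 4 of the 6 were among the 23. Without chromosome 8, 4 higher and 35 lower bins remained.

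At the rule of 0.3, 103 higher bins lay outside chromosome 8, and 4 regions of at least 3 bins among them. Besides the chromosome 17 block these were on chromosomes 2, 4 and 16, and in each the pro-B difference was the larger. On chromosome 16 from 92700001 to 93000000 the levels were 1.00, 1.00, 1.35 and 1.81, with ratios to the ES pair of 1.35 (1.27 to 1.42) in myotubes and 1.80 (1.72 to 1.89) in pro-B cells. On chromosome 4 from 95100001 to 95400000 the levels were 1.12, 1.14, 1.48 and 2.75, and the ratios 1.31 and 2.43. On chromosome 2 from 148000001 to 148300000 they were 0.940, 0.870, 1.22 and 1.85, and the ratios 1.35 and 2.04. In all 3 regions the ES pair lay near the ordinary level, and the myotube ratios of 1.31 to 1.35 lay nearer than the pro-B ratios to the limit of 1.23 that the rule sets.

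The lines also differed from ES cells according to how high a bin stood in ES cells, and here their medians went opposite ways. Bins were put in 10 groups of equal size (deciles) by their level in 1 ES library, and the ratio was taken to the other ES library, so that the counting error that chose a bin did not enter its ratio. In the decile highest in untreated ES, the median log2 ratio to SB431542 ES was -0.138 in myotubes, below 0 on 19 of 19 autosomes, and 0.101 in pro-B cells, above 0 on 15 of 19. With the ES libraries exchanged the values were -0.128 (below 0 on 19 of 19) and 0.103 (above 0 on 16 of 19). The ES library that ordered the bins itself stood above the other in its highest decile, at 0.038 (untreated) and 0.061 (SB431542). Over all bins the pro-B medians were 0.024 to SB431542 ES and 0.043 to untreated ES, so part of the pro-B height was present in bins at large. In deciles 2 to 4 by untreated ES, myotubes were higher at medians of 0.05 to 0.06, and pro-B cells lay between -0.02 and 0.01. From there to the highest decile the myotube ratio went down and the pro-B ratio went up, so that neither direction was common to both lines.

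**Figure D5:**
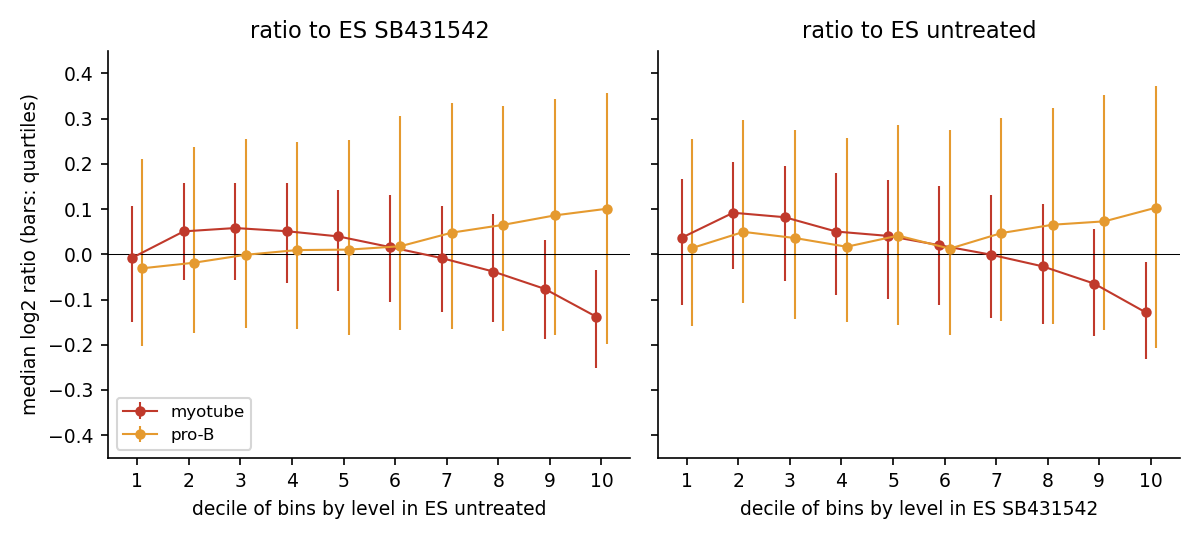
Median log2 ratio of each differentiated library to 1 ES library, for deciles of bins ordered by their level in the other ES library (left: ordered by untreated ES, right: by SB431542 ES); bars span the quartiles over bins. Toward the highest decile myotubes go down to -0.138 and -0.128 and pro-B cells up to 0.101 and 0.103, with wide quartiles for pro-B cells.

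At the ends of the chromosomes the lines had no difference in common that held with both ES libraries and was larger than that within the ES pair. In the first of 10 equal parts of the autosomes, at the centromere end, the median log2 ratios to untreated and to SB431542 ES were 0.01 and -0.05 in myotubes and -0.04 and -0.11 in pro-B cells. SB431542 over untreated ES was itself 0.06 there, above 0 on 16 of 19 autosomes. In the last part the values were -0.07 and -0.03 in myotubes and -0.01 and 0.02 in pro-B cells, beside -0.04 for the ES pair. The values at both ends changed with the ES library used. In parts 5 to 8 all 4 medians were above 0, at 0.01 to 0.05 in myotubes and 0.03 to 0.11 in pro-B cells, beside 0.01 to 0.03 for the ES pair.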

How the data were processed

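Per the file headers, the authors aligned reads to mm8 with Bowtie, whose version is not given in the sources used here, keeping reads with at most 2 places, in run 100623 for 3 libraries and run 100804 for SB431542 ES. The deposited values are signed positions, 1 for each read, with repeats kept. The sections were read as reads with 1 and with 2 places, from the section names and options. Repeats, 2.81% to 5.52% of autosomal 1-place reads, were removed, and 0.5 was added to counts before log2. With 1 library for each group, no test was run. The members, lists and rules were chosen with earlier results of these data known. Bins were called by the rule of size; the named regions are those of 3 or more neighbouring called bins and the 5 single bins furthest on each side, and others were chosen after their values were seen. Alternatives are in the closing section. The annotation at hand is of GRCm38, so no gene, marker or sequence was placed on mm8 positions. The calling code was checked on simulated counts with planted differences and counting error alone. That check does not bear on false calls at the wider spread between the real libraries. Python 3.11.15, numpy 2.4.6, pandas 2.3.3 and scipy 1.17.1 were used.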

Additional observations from a re-analysis of the deposited data

Results flagged for a closer look

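In 20 bins myotubes were lower and pro-B cells higher than both ES libraries, past 0.5 on all 4 ratios, and in 3 bins the lines were the other way round. The difference between the lines was not tested, since each is 1 library. Of the 20 bins, 10 lay on chromosome 12 between 114400001 and 116400000. The mouse immunoglobulin heavy chain genes are distal on chromosome 12, but bins were not matched to genes. The bin from 116000001 held 584, 544, 277 and 2211 reads in untreated ES, SB431542 ES, myotubes and pro-B cells. On chromosome 4, the bin from 88800001 held 320, 330, 0 and 481 reads. In the 3 opposite bins, that on chromosome 4 from 144800001 held 355, 347, 492 and 123 reads.

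In the decile of bins highest in untreated ES, the median log2 ratio to SB431542 ES was -0.138 for myotubes and 0.101 for pro-B cells. The directions were opposite, and the difference was not tested. Untreated over SB431542 ES was itself 0.038 in that decile, and the pro-B median over all bins was 0.024.

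Reads with 2 reported places lay outside the main measurement. Of 9973 bins with a mean of at least 20 such lines, 28 (0.281%) were at least 2-fold lower and 3 (0.0301%) at least 2-fold higher in both lines than in both ES libraries. On a single ratio, SB431542 over untreated ES was at least 2-fold higher in 78 of these bins and 2-fold lower in 89. The bin on chromosome 4 from 121800001 held 329, 341, 2 and 0 lines in untreated ES, SB431542 ES, myotubes and pro-B cells and no 1-place read in any library. The bin on chromosome 19 from 9600001 held 722, 671, 301 and 338 lines. The 3 higher bins had few lines, and that on chromosome 11 from 8100001 held 13, 11, 34 and 32.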

How the results depend on the processing

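The 23 higher and 36 lower bins moved with the settings. They became 153 and 229 at a rule of 0.3, 0 and 13 at a rule of 1, 40 and 89 with a minimum of 1 read, 67 and 109 in bins of 50 kb, 11 and 17 in bins of 200 kb, and 1 and 3 in bins of 1 Mb. Higher bins alone moved to 6 with the median within 5 Mb, and to 4 without chromosomes 7, 8 and 15 or without chromosome 8. With a minimum of 300 reads there were 24 higher and 16 lower bins, which turned their order. Lower bins alone moved to 61 with 2-place reads and 102 with the median over all autosomes. Leaving out each library in turn gave 37 to 2265 higher and 54 to 460 lower bins. The lowest were without the SB431542 library, which leaves 1 sequencing run, and these held all 23 and 36, as a rule on fewer ratios must. The highest were without myotubes, and without pro-B cells the counts were 206 and 123. Regions went from 3 to 11 with runs of 2 bins. The SD of the log2 level with a minimum of 300 reads was 0.254, 0.237, 0.262 and 0.415 for untreated ES, SB431542 ES, myotubes and pro-B cells. The 43 stretches became 19 at 20 kb or more, 20 with 2-place reads, and 46 to 77 with a library left out. Of 193 values under alternatives, 148 kept their size or call and none reversed. Part of this was fixed in advance. A called bin must stay called with a library left out or at a rule of 0.3, and its ratios are the same without chromosomes 7, 8 and 15. A bin with ratios of both signs was given 0, so a reversal needed all its ratios to change sign. The 11 lost calls of named bins were on chromosome 8: all 5 at a rule of 1, all 5 with the median within 5 Mb, and that from 97300001 with the median over all autosomes. Fewer or larger bins and stricter rules change counts by construction; otherwise the cause was not tested. The settings without chromosome 8, and those for stretches, were added after the data were seen. No paired analysis was possible because each group has 1 library and no test was run. Libraries of 12432118 to 13469179 reads limit what bins with few reads can show.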
